A study of Mus musculus with 12 samples.

Results

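The liver enzymes that break down amino acids were followed as 45 genes in mouse liver polysome RNA, a set given by name that covers the breakdown of tyrosine, tryptophan, histidine, glutamate, alanine, aspartate, serine, glycine, methionine, cysteine, the branched-chain amino acids, proline and lysine. Urea cycle genes were not among them. All 45 were found among the 27179 gene IDs of the tables through their Entrez IDs, and all 45 passed the filter on low counts that left 10555 genes for testing. The genes were listed by function, though the list was made with earlier results of these data known. Their lowest count in any library was 9 (Amt), the only member with fewer than 10 counts in a library.

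RNA was sequenced from sucrose gradients of livers of male C57BL/6 mice, from which fractions were combined into 2 pools per liver, named heavy polysome and light polysome. Heavy polysomes carry more ribosomes per mRNA than light ones, and the study set out to compare well and poorly translated mRNA. The labels do not say whether fractions 2 to 7 or 8 to 13 made up the heavy pool. Wild-type mice were given chow (3 animals, chow 1 to chow 3) or a ketogenic diet (2 animals, keto 1 and keto 2). The treatment protocol gives 24 h on the diets, while the time label of all 12 samples reads 0h, and the sources used here do not settle which time the samples stand for. A single chow-fed animal was eIF4E S209A/S209A, so that both copies of the cap-binding factor eIF4E lacked the serine that the MNK kinases phosphorylate. The labels name no tissue restriction of this change. The sample titles of chow 1 and chow 2 read chow and those of the keto animals read keto, while those of chow 3 and the S209A animal read fed. Both pools of each animal were sequenced, which made 12 libraries. Animals were the replicates, and no label gives their age.

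The liver is the main site of breakdown for most amino acids, the branched-chain ones excepted. An aminotransferase or a lyase usually removes the nitrogen, which passes through glutamate and ammonia into urea, and the carbon skeleton goes to glucose, ketone bodies or the citric acid cycle. Several first steps, such as those run by Tat, Tdo2 and Sds, are textbook targets of glucocorticoids and glucagon and follow protein intake and fasting. Most members are hepatocyte enzymes.

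The 12 libraries held 3341046 counts (the light pool of the S209A animal) to 13263355 (the heavy pool of keto 1). Nuclear protein-coding genes held between 356544 (keto 2 light) and 1776829 (chow 3 heavy) of them. Their share was 4.09% to 6.61% in keto, 6.53% to 22.2% in chow 1 and 2, and 29.6% to 39.2% in chow 3 and the S209A animal. TMM scaling factors were 0.324 to 0.566, 0.645 to 1.33 and 2.13 to 3.12 in the same groups. A single unnamed gene ID held 15.9% (keto 2 heavy) to 59.1% (chow 1 heavy) of all counts. The part of this in the contrasts was not tested. The headers of the tables parted the animals by processing: those of chow 1 and chow 2 name Bowtie2, those of chow 3 and the S209A animal name HISAT2, and those of both keto animals name a read file. No chow table shares the wording of the keto tables, so an effect of diet and one of any such difference cannot be told apart. Hepatocyte markers were well measured (8 of 8 with counts in every library, summed level 4243 to 9928 CPM, which are counts scaled to a common library size). Periportal markers summed to 809.6 to 2849 CPM and pericentral ones to 225 to 2169. Markers of other cells were low, with Kupffer cells at 26.3 to 84.2, sinusoidal endothelium at 29.0 to 104, stellate cells at 23.8 to 54.6, cholangiocytes at 1.10 to 13.4 and erythroid cells at 3.35 to 93.7 (4 of 5 matched). Krt19 of cholangiocytes was at 0 counts in 11 of the 12 libraries. Kidney tubule markers summed to at most 0.745 CPM, with 3 of 4 at 0 throughout, and exocrine pancreas markers to at most 2.18.

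Summed over the 45 enzymes, the share of protein-coding counts was larger in the heavy than in the light pool of each of the 6 livers. The shares in heavy and light were 2.60% and 2.27% in chow 1, 4.33% and 3.62% in chow 2, and 4.12% and 3.10% in chow 3. They were 2.99% and 2.08% in keto 1, 3.93% and 2.60% in keto 2, and 5.82% and 4.78% in the S209A animal. The S209A animal thus had the highest share in both pools, and the groups of chow and keto animals overlapped in each pool. A sum gives most weight to the most abundant members. In the S209A animal 15 of 45 members had a positive log2 heavy over light, with a median of -0.13. Bhmt alone held 2503 of the 8073 CPM summed over the members in heavy there, and 1481 of 7793 in light. In bulk liver, fewer cells of a type and less RNA per cell cannot be told apart.

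In chow-fed livers 36 of the 45 enzymes had a positive log2 ratio of heavy over light (median 0.42, against -0.09 over all genes tested), and edgeR's quasi-likelihood test called 0 of them at an adjusted p of 0.05 (lowest 0.122, for Bhmt). Over all genes the same test called 24, which is 0.227%. At an unadjusted p of 0.05 it placed 8 members higher in heavy (Hpd, Fah, Tdo2, Glud1, Gpt, Bhmt, Cth and Bckdha) and 0 lower, or 17.8% of the members beside 3.94% of all genes on the higher side. A total of 21 members were higher in the heavy pool of each chow animal, among them Mat1a, Gnmt and Ahcy, which follow each other in the methyl cycle. The share over all genes was 12.2%. DESeq2 called 5 members (Bhmt, Glud1, Gpt, Tdo2 and Hpd) among 94 genes (0.891%). The count in edgeR turned on chow 3, since without it 8 members passed (Bhmt, Glud1, Gpt, Csad, Tdo2, Hpd, Bckdha and Fah) among 402 genes, while 0 members passed without chow 1 or without chow 2, among 5 and 4 genes. At an unadjusted p of 0.05 in either direction there were 2 members without chow 1, 2 without chow 2 and 19 without chow 3. With no block for the animal there were 2. Over all genes these counts were 270, 305, 1382 and 371, beside 735 of 10555 in the full fit.

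The 3 chow animals did not contribute alike. The median log2 heavy over light of the 45 members was 0.75 in chow 1, 0.50 in chow 2 and 0.10 in chow 3, with 36, 35 and 29 members positive. The 8 hepatocyte markers had medians of 1.31, 0.76 and 0.18 in the same animals. A list of 8 nuclear RNAs, of which 7 were tested, had medians of -2.85, -1.37 and -0.37. The part of either in the enzymes' ratios was not tested. Chow 3 was thus nearest to no difference in the enzymes, in the hepatocyte markers and in the nuclear RNAs.

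In the ketogenic diet livers 33 members had a positive ratio (median 0.27, all genes 0.03), and edgeR called 0 members among 19 genes (0.18%). The lowest adjusted p was 0.0956, for Csad on the lower side. At an unadjusted p of 0.05, 3 members were higher in heavy (Bhmt, Mccc1 and Prodh) and 1 lower (Csad), beside 2.31% and 1.96% of all genes. Leaving out keto 1 or keto 2 left 1 keto animal, and counts of members at that p are not given for those runs. DESeq2 called 0 members among 3 genes (0.0284%). Per-animal medians were 0.20 in keto 1 and 0.21 in keto 2. The hepatocyte markers went the other way there, with medians of -0.42 and -0.26. The 7 nuclear RNAs tested had medians of 1.25 in keto 1 and 0.62 in keto 2, of the opposite sign to those in chow. The part of either list in the enzymes' ratios was not tested. Without keto 1 or keto 2 10 and 7 genes were called, with 0 members among them.

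Fitted over all 6 animals, 42 of 45 members were positive (median 0.22, all genes -0.01), with Csad, Amt and Afmid negative. Of these edgeR called 0, among 3 genes called in all (0.0284%). At an unadjusted p of 0.05, 5 members were higher and 0 lower, beside 1.89% of all genes on the higher side. DESeq2 called Bhmt among 12 genes (0.114%). Without chow 1, chow 2, chow 3, keto 1, keto 2 and the S209A animal in turn, 19, 3, 0, 0, 0 and 8 genes were called, with 0 members in each case, and 2, 3, 1, 1, 2 and 9 members reached the unadjusted p in either direction. For the members at the unadjusted p in these runs, counts over all genes are not set beside them here. They thus do not show whether the members differ from other genes. Only Gnmt, Ahcy, Bhmt and Aass were higher in the heavy pool of each of the 6 animals, 4 of 45 against 1.5% of all genes. In the S209A animal the median was -0.13, with 15 of 45 positive, the only animal below 0.

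**Figure D1:**
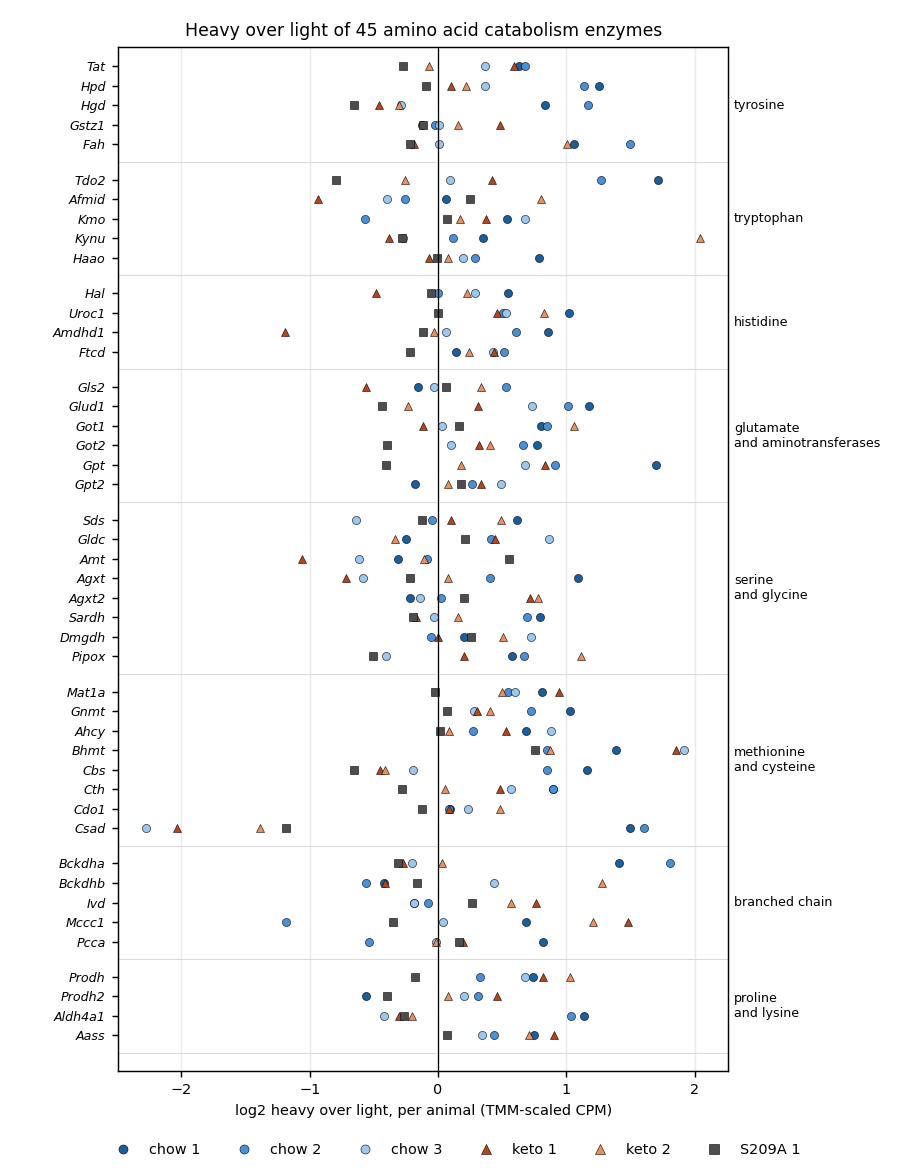
Log2 of heavy over light for each of the 45 enzymes (rows, grouped by substrate) in each animal (points), from CPM scaled by TMM over all 12 libraries. Most circles of chow 1 and chow 2 lie right of 0 (36 and 35 of 45), chow 3 lies closer to 0 with a median of 0.10, most squares of the S209A animal lie left of 0 (15 of 45 positive), and Csad spans the widest range.

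Set against chow, most of the enzymes had a lower fitted level in the ketogenic diet livers in both pools, without any that passed. Summed over the members, the diets overlapped in both pools. The sums were 3491 and 4171 CPM in keto heavy against 4042 to 7215 in chow heavy. In light they were 2513 and 3281 in keto against 2300 to 4475 in chow. In the heavy pool 36 of 45 were lower (median -0.62, all genes -0.04). There edgeR called 0 members and 0 of 10552 genes (0%, with 862 at an unadjusted p of 0.05), with 8 members lower (Hgd, Fah, Tdo2, Got2, Gpt, Cbs, Csad and Bckdha) and 0 higher at an unadjusted p of 0.05. That was 17.8% of the members, beside 5.16% of all genes on the lower side. In 20 members both keto animals lay below all 3 chow animals, against 13.4% of all genes. DESeq2 called Csad, Cbs and Tdo2 among 98 genes (0.929%). Without chow 3, edgeR called Csad and Cbs among 108 genes, and with the wording of the titles as a batch, which sets the keto animals against chow 1 and chow 2 alone, it called Csad, Cbs and Tdo2 among 126. Without any other single animal 0 genes were called. The members at an unadjusted p of 0.05 in either direction were 10, 5 and 12 without chow 1, chow 2 and chow 3. Counts over all genes in these runs are not set beside them here, so they do not show whether the members differ from other genes.

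In the light pool 36 of 45 members were again lower in keto (median -0.43, all genes -0.13). Here edgeR called 0 members and 0 of 10551 genes (0%, with 640 at an unadjusted p of 0.05), with Kynu and Agxt2 lower at an unadjusted p of 0.05, or 4.44% of the members beside 3.73% of all genes on the lower side. In either direction the count of members was 8 without chow 1. The count over all genes in that run is not set beside it here, so it does not show whether the members differ from other genes. DESeq2 called 0 members and 0 genes (0%, with 623 at an unadjusted p of 0.05). Both keto animals lay below all 3 chow animals in 12 members, against 14.6% of all genes. The heavy and light comparisons use the same animals and are not independent of each other.

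Some of the marker lists differed between the diet groups, while others overlapped. In the heavy pool the hepatocyte markers summed to 4243 and 5293 CPM in keto and to 5656 to 9928 in chow, and the nuclear RNAs to 11059 and 13091 in keto against 1515 to 2668 in chow. In the light pool the hepatocyte sums overlapped, at 5508 and 6047 in keto and 4561 to 7437 in chow. The nuclear RNAs of the light pool lay at 7366 and 10999 in keto and 1734 to 7352 in chow. Of the other lists, 3 did not overlap between the diets in heavy, each lower in keto. Periportal markers were at 1102 and 1313 in keto against 1394 to 2849 in chow, stellate cell markers at 23.8 and 31.1 against 35.9 to 54.6, and cholangiocyte markers at 1.10 and 2.12 against 4.08 to 13.4. Of the 5 cholangiocyte markers, 1 and 2 had counts in the keto heavy libraries and 2 to 4 in those of chow. Sox9 is on both the periportal and the cholangiocyte list. In light the erythroid markers were at 36.6 and 93.7 in keto against 6.86 to 16.4 in chow. Pericentral, Kupffer cell and endothelial sums overlapped in both pools. The part of any of these lists in the lower enzyme levels was not tested.

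The difference between the diets in heavy over light itself was tested as an interaction in the same fit. Its median over the members was -0.14 (all genes 0.15), with 17 of 45 positive. All 7 nuclear RNAs tested were higher in keto for it at an unadjusted p of 0.05 in edgeR, with 1 called. Over all genes 309 of 10555 were higher in keto at that p. The test called 0 members among 20 genes (0.189%), with 1 member (Csad, lower in keto) at an unadjusted p of 0.05, beside 3.11% of all genes on that side. DESeq2 called 0 members among 10 genes (0.0947%). Among genes with a mean of at least 50 counts the median was -0.02 over the 44 members left and -0.02 over all genes, with 22 of the 44 positive, so the gap between the members and all genes depended on the count filter. Without chow 3 it called Csad and Bckdha among 211 genes. The count of all genes was 3, 0, 20 and 2 without chow 1, chow 2, keto 1 and keto 2, with 0 members called in each.

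**Figure D2:**
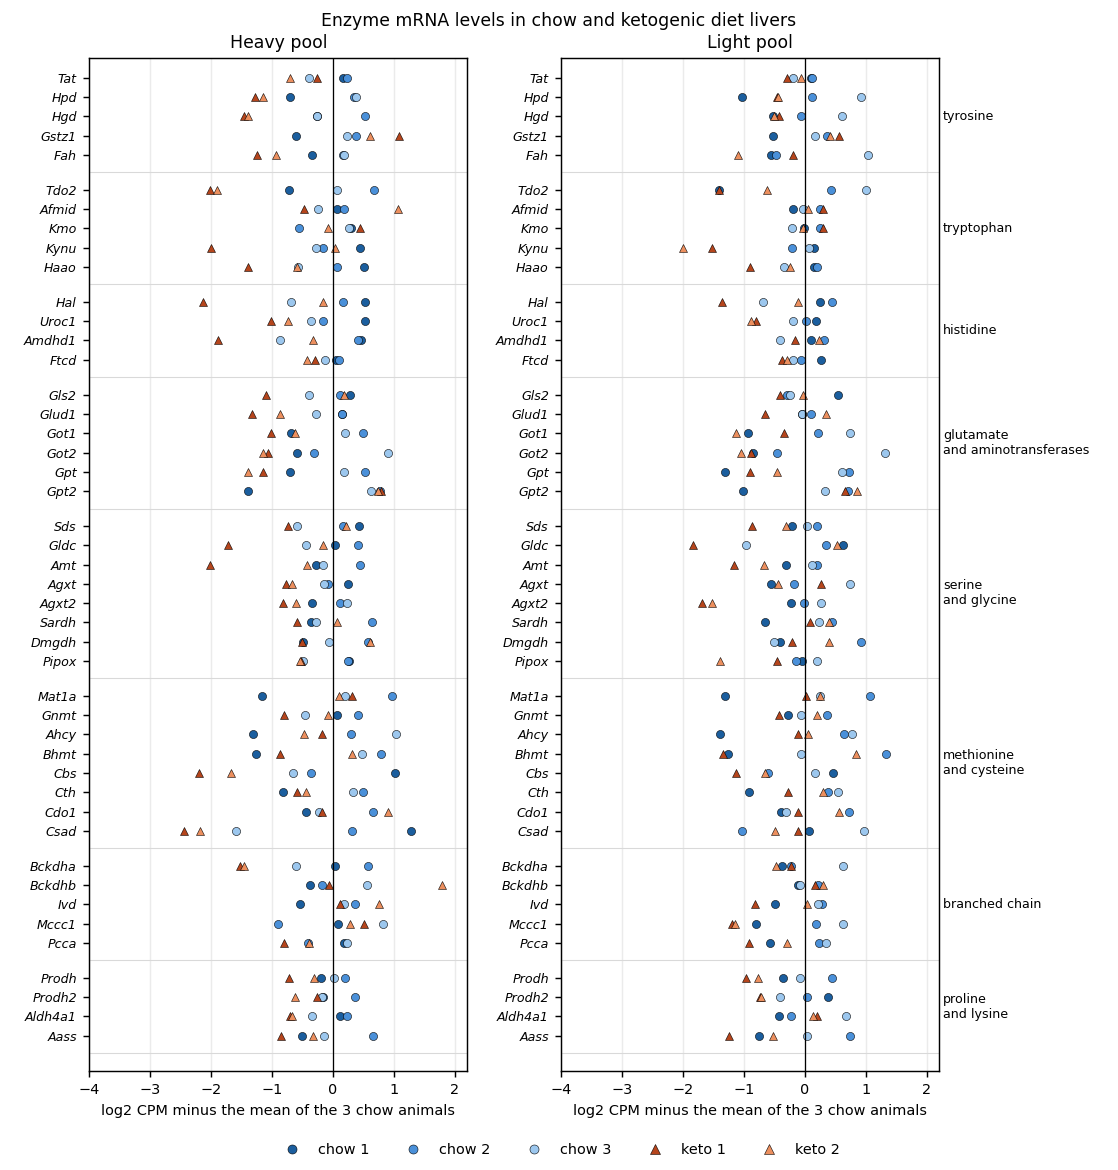
Log2 CPM of each enzyme minus the mean of the 3 chow animals, in the heavy pool (left) and the light pool (right), with chow animals as circles and keto animals as triangles. In the heavy pool both triangles lie left of every circle for 20 of 45 enzymes, with Csad, Cbs and Tdo2 farthest left, and in the light pool for 12.

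**Figure D3:**
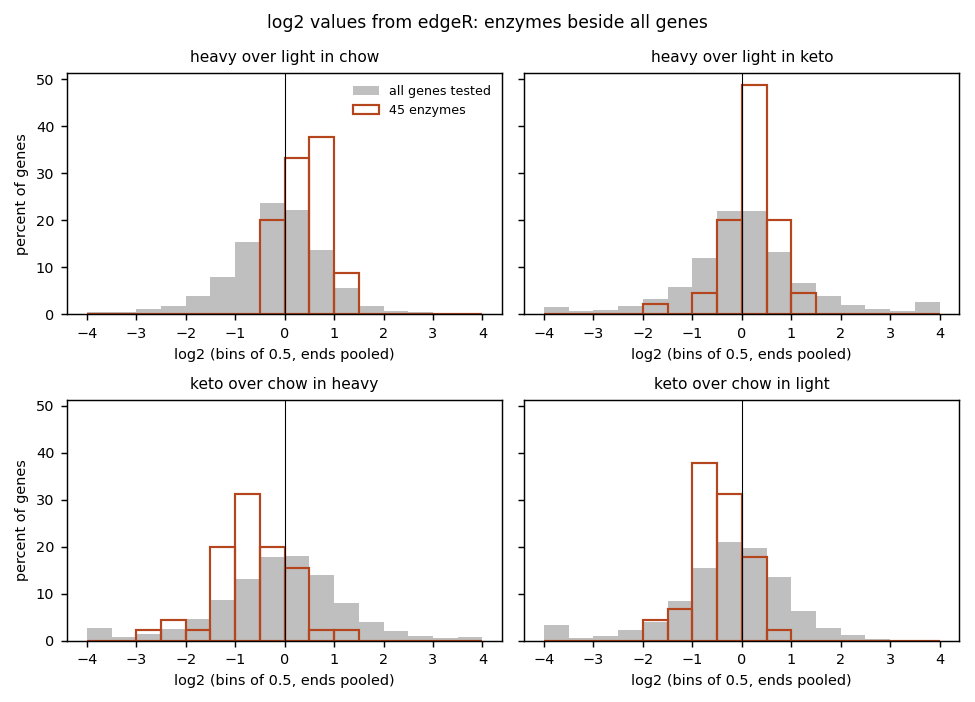
Percent of the 45 enzymes (outline) and of all genes tested (filled) in bins of 0.5 of edgeR's log2 value for 4 comparisons, with values beyond 4 pooled in the end bins. The enzymes centre on 0.42 and 0.27 for heavy over light in chow and in keto, and on -0.62 and -0.43 for keto over chow in the heavy and the light pool.

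Bhmt had the highest fitted ratio of the members in chow, Csad had the widest diet value in heavy, and Tdo2 was the one member that DESeq2 called both for heavy over light in chow and for diet in heavy. The 100 bases before the annotated starts of these 3 genes, which were chosen after their values were seen, are shown for that reason, from RefSeq (GRCm38.p6), minus strand in each case, read 5′ to 3′ along the gene. Capitals mark a CCAAT box, written CCAAT or, on the opposite strand, ATTGG. The stretches are chr13:93637759-93637858 for Bhmt, chr15:102205053-102205152 for Csad and chr3:81975729-81975828 for Tdo2.
Bhmt: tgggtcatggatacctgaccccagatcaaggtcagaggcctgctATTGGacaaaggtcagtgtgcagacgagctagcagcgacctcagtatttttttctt
Csad: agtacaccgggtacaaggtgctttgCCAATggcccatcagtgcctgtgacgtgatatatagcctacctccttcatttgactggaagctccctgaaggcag
Tdo2: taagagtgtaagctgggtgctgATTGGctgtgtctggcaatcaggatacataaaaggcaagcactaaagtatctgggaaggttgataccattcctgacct
Each of the 3 stretches holds 1 such box. A link between the box and the ratios or the diet contrast was not tested. The promoter table, with windows of 250 bases before to 50 after a start, held 38 of the 45 members in 43 windows. CCAAT, on either strand, lay in 24 of these 43 windows (21 members) and in 37.4% of all 32851 windows. TATAAA lay in 7 of the 43 windows (6 members) and in 13.6% of all windows. The cAMP response element TGACGTCA and the C/EBP palindrome TTGCGCAA were found in 0 of the 43, and in 1.79% and 0.183% of all. A match describes letters and no binding.

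Methionine and cysteine breakdown held Bhmt, with the highest fitted ratio in chow, and Csad, with the widest spread of ratios over the animals. Mat1a makes S-adenosylmethionine, Gnmt spends it, Ahcy clears S-adenosylhomocysteine, Bhmt returns homocysteine to methionine with betaine, and Cbs and Cth carry homocysteine to cysteine. All 8 members of the group had a positive ratio in chow (median 0.63), with 0 passing. Bhmt (chromosome 13, 93616891 to 93637758 in GRCm38.p6) stood at 254, 1053 and 841 CPM in the heavy pools of chow 1, 2 and 3 and at 97.2, 583 and 223 in the light. In keto 1 and 2 it was at 331 and 756 in heavy and 91.3 and 414 in light, and in the S209A animal at 2503 and 1481. Heavy was above light in each of the 6 livers although the level itself differed widely between animals of 1 diet. Its log2 heavy over light was 1.38 ± 0.41 in chow, 1.36 ± 0.51 in keto and 1.27 ± 0.31 over all 6 animals (standard errors, as after every log2 value below), with edgeR adjusted p of 0.122, 0.758 and 0.223. Its level did not separate the diets, with keto over chow at -0.40 ± 0.77 in heavy and -0.27 ± 0.93 in light.

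Csad, the decarboxylase that leads from cysteine to taurine (chromosome 15, 102176997 to 102205052), split the chow animals. In the heavy pool it was at 139, 70.4 and 18.8 CPM in chow 1, 2 and 3, at 10.4 and 12.6 in keto 1 and 2 and at 36.8 in the S209A animal. In the light pool the same animals gave 49.1, 23.0 and 92.1, 43.3 and 33.2, and 83.9. The heavy pool of chow 3 was thus nearer to keto than to chow 1 and chow 2, while its light pool was the highest of the 6 light pools for this gene. Log2 heavy over light was 1.5 and 1.60 in chow 1 and 2 and -2.28, -2.03, -1.38 and -1.18 in chow 3, keto 1, keto 2 and the S209A animal. The fitted ratio was 0.42 ± 0.42 in chow and -1.74 ± 0.47 in keto, a difference of -2.16 ± 0.63 (edgeR adjusted p = 0.158). Without chow 3 that difference was -3.25 with an adjusted p of 1.02e-07 in the same edgeR test. Keto over chow stood at -2.72 ± 0.75 in heavy (edgeR adjusted p = 0.476), and at -3.16 without chow 3 (edgeR adjusted p = 0.00193), and at -0.52 ± 0.61 in light.

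Cbs, the first enzyme of transsulfuration, followed the same split in its ratio. Its heavy levels were 171, 66.0 and 54.1 CPM in chow, 18.6 and 26.5 in keto and 95.3 in the S209A animal. Its light levels were 76.5, 36.5 and 62.1, 25.5 and 35.3, and 150.4 in the same order. Both keto animals lay below all chow animals in each pool, with keto over chow at -2.11 ± 0.63 in heavy (edgeR adjusted p = 0.49, and 0.0223 at -2.36 without chow 3) and -0.95 ± 0.54 in light. Cth, which releases cysteine from cystathionine, was at 44.9, 111 and 99 CPM in heavy and 24.0, 59.5 and 66.8 in light in chow, at 52.5 and 57.9 and 37.6 and 55.8 in keto, and at 127 and 155 in the S209A animal. Its ratio was 0.79 ± 0.36 in chow and 0.27 ± 0.44 in keto.

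Mat1a had the highest mean CPM of the members, a scale that does not correct for gene length. It stood at 322, 1407 and 828 CPM in the heavy pools and 183, 963 and 546 in the light pools of chow. In keto it lay at 891 and 772 and 464 and 546, inside the chow range, and in the S209A animal at 949.7 and 966. Chow 1 was the lowest animal in both pools. Keto over chow was -0.04 ± 0.73 in heavy. Gnmt, Ahcy and Cdo1, which oxidises cysteine, had chow ratios of 0.68 ± 0.37, 0.61 ± 0.37 and 0.14 ± 0.36.

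**Figure D4:**
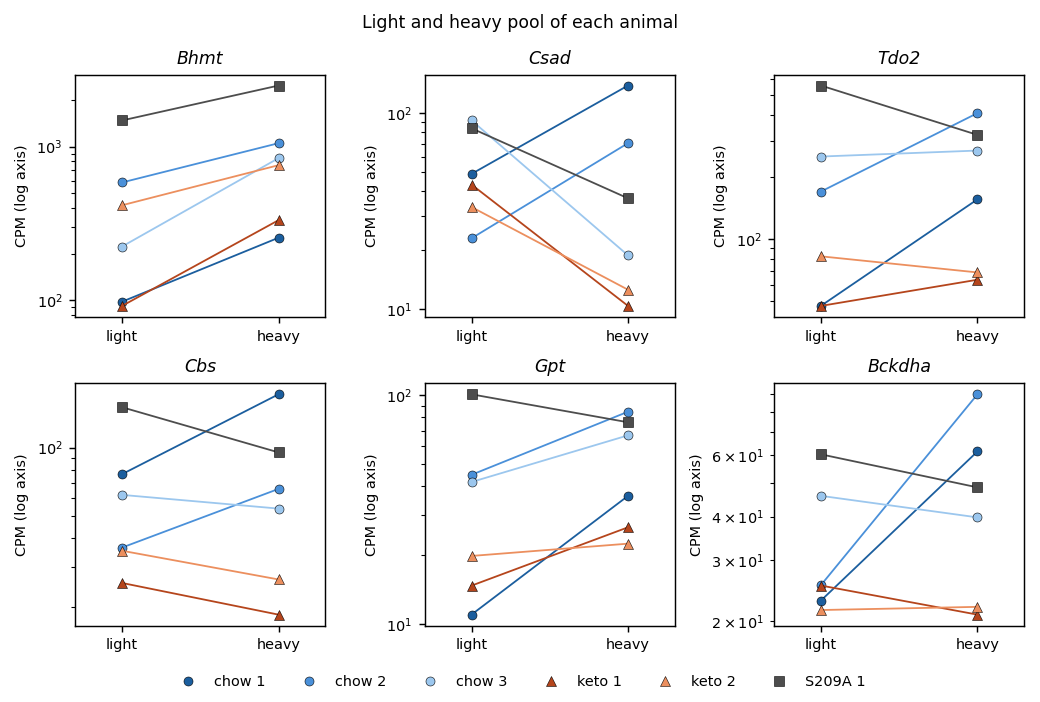
CPM (log axis) in the light and heavy pool of each animal, joined by a line, for 6 members. Bhmt lines slope up in all 6 animals, while those of Csad, Cbs and Bckdha slope up in chow 1 and chow 2 and down in chow 3 and the S209A animal.

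Tryptophan breakdown was led by Tdo2, the dioxygenase that opens the ring in the first step (chromosome 3, 81958412 to 81975728). Its heavy levels were 156, 409 and 269 CPM in chow, 63.4 and 68.8 in keto and 321 in the S209A animal. In light it was at 47.3, 170.2 and 252 in chow, 47.3 and 82.4 in keto and 558 in the S209A animal. In the heavy pool both keto animals were below all chow animals, while in the light pool chow 1 was as low as keto 1. Keto over chow stood at -2.07 ± 0.63 in heavy (edgeR adjusted p = 0.49, and 0.0431 at -2.10 with the title wording as a batch) and -1.28 ± 0.77 in light. Its heavy over light was 1.03 ± 0.38 in chow and 0.08 ± 0.46 in keto, with chow 1, 2 and 3 at 1.71, 1.27 and 0.10.

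The later tryptophan steps were measured at lower counts. Kynu, which splits kynurenine, was at 28.1, 18.6 and 17.1 CPM in heavy and 21.9, 17.1 and 20.7 in light in chow. In keto it was at 5.19 and 21.2 and 6.86 and 4.95, so that keto 2 lay within the chow range in heavy and below it in light. The S209A animal was at 30.4 in heavy and 37.0 in light, above all 5 others in both pools. The light difference of -1.74 ± 0.49 had the smallest unadjusted p of the members there (edgeR adjusted p = 0.796). Afmid, the formamidase of the second step, stood at 10.9, 11.9 and 8.82 CPM in heavy and 10.4, 14.2 and 11.7 in light in chow, at 7.55 and 21.8 and 14.7 and 12.4 in keto, and at 12.9 and 10.8 in heavy and light of the S209A animal. Keto 1 and keto 2 fell on opposite sides of the chow animals in heavy, and the fitted 0.48 ± 0.56 became -0.48 without keto 2. Kmo and Haao, of the middle of the pathway, had keto over chow in heavy of 0.16 ± 0.49 and -1.01 ± 0.53.

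Tyrosine breakdown runs from Tat through Hpd, Hgd and Gstz1 to Fah, which yields fumarate and acetoacetate. Its median ratio in chow was 0.58, with 4 of 5 positive and 0 passing. Tat was at 643, 673 and 434 CPM in the heavy and 415, 420.4 and 337 in the light pools of chow, at 479.6 and 352 and 317 and 370.4 in keto, and at 445 and 538 in the S209A animal. The diets overlapped in both pools, at -0.49 ± 0.61 in heavy and -0.19 ± 0.67 in light. Hpd, Hgd and Fah differed more, with keto over chow in heavy of -1.29 ± 0.65, -1.48 ± 0.52 and -1.11 ± 0.50, and both keto animals below all chow animals in each of the 3. Gstz1 had the opposite sign, at 25.3, 50.2 and 44.9 CPM in chow heavy and 81.5 and 58.5 in keto heavy, and at 27.7, 50.9 and 44.6 and 58.3 and 52.7 in light. It was at 48.1 and 52.3 in heavy and light of the S209A animal. Both keto animals lay above all chow animals in both pools, at 0.80 ± 0.49 in heavy and 0.43 ± 0.48 in light.

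Histidine breakdown runs from Hal through Uroc1 and Amdhd1 to Ftcd, which hands a one-carbon unit to folate. All 4 members had a positive ratio in chow (median 0.44) and a negative diet value in heavy (median -0.92), with 0 passing. Ftcd was the most even of them, at 101, 105 and 89.7 CPM in heavy and 91.8, 73.0 and 66.5 in light in chow, 79.6 and 73.4 and 58.9 and 62.2 in keto, and 88.2 and 103 in the S209A animal. Amdhd1 was at 49.7, 48.4 and 19.8 in heavy and 27.3, 31.6 and 19.0 in light in chow, at 9.75 and 29.0 and 22.7 and 29.7 in keto, and at 47.1 and 51.2 in heavy and light of the S209A animal. Each chow animal was higher in heavy and both keto animals were lower, though keto 2 by little. The difference in ratio was -1.13 ± 0.60 (edgeR adjusted p = 0.853). Hal and Uroc1 had keto over chow in heavy of -0.92 ± 0.63 and -0.92 ± 0.52.

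Among the enzymes of glutamate and the aminotransferases, all 6 had a positive ratio in chow (median 0.53). Gpt, the cytosolic alanine aminotransferase, was at 36.2, 84.7 and 66.7 CPM in heavy and 11, 44.8 and 41.7 in light in chow, 26.4 and 22.4 and 14.7 and 19.8 in keto, and 76.1 and 101 in the S209A animal. Heavy was above light in the 5 wild-type livers, at 1.09 ± 0.37 in chow (edgeR adjusted p = 0.274) and 0.52 ± 0.46 in keto. Glud1, which releases ammonia from glutamate, was at 174, 173 and 128 CPM and 76.7, 85.7 and 77.3 in chow, at 62.6 and 86.0 and 50.3 and 101 in keto, and at 142 and 192 in heavy and light of the S209A animal. Its ratio of 0.97 ± 0.36 in chow stood beside 0.04 ± 0.44 in keto, a difference of -0.93 ± 0.57 that did not pass.

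Gpt2, the mitochondrial alanine aminotransferase, set chow 1 apart. It was at 39.0, 175 and 158 CPM in chow heavy and 177 and 171 in keto heavy, and at 44.2, 145 and 112 and 141 and 162 in light. It was at 161 and 142 in heavy and light of the S209A animal. Chow 1 lay far below the other 2 chow animals in both pools, and the keto values of 0.49 ± 0.63 in heavy and 0.58 ± 0.61 in light stayed within their errors. Gls2, the liver glutaminase, was at 38.0, 34.2 and 24.0 CPM in heavy and 42.4, 23.6 and 24.5 in light in chow, at 14.6 and 35.7 and 21.7 and 28.3 in keto, and at 33.6 and 32.1 in heavy and light of the S209A animal, with the diets overlapping in both pools. Got1 and Got2, the aspartate aminotransferases of cytosol and mitochondrion, had keto over chow in heavy of -0.90 ± 0.54 and -1.27 ± 0.56.

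Serine and glycine breakdown had a small contrast between pools in chow, with 5 of 8 members positive (median 0.28). Sds, the serine dehydratase, was at 42.7, 35.9 and 21.2 CPM in heavy and 27.8, 37.1 and 33.1 in light in chow, 19.0 and 36.9 and 17.7 and 26.2 in keto, and 35.8 and 39.1 in the S209A animal. Its keto values were -0.25 ± 0.52 in heavy and -0.59 ± 0.46 in light. Sardh, the mitochondrial sarcosine dehydrogenase, was at 138, 275 and 145 in heavy and 79.5, 171 and 148 in light in chow, at 118 and 184 and 133 and 165 in keto, and at 197 and 226 in heavy and light of the S209A animal, with the diets overlapping.

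The glycine cleavage system gave its P-protein Gldc and its T-protein Amt. Gldc was at 29.3, 38.1 and 21.2 CPM in heavy and 35.0, 28.6 and 11.5 in light in chow, at 8.65 and 25.7 and 6.29 and 32.5 in keto, and at 48.3 and 41.8 in heavy and light of the S209A animal. Keto 1 was the lowest library in each pool, while keto 2 lay inside the chow range. Amt, at 4.72, 7.83 and 5.10 CPM in heavy and 5.91, 8.34 and 7.95 in light in chow and 1.42 and 4.25 and 3.24 and 4.60 in keto, was the least counted member. It was at 8.23 and 5.53 in heavy and light of the S209A animal. Agxt2, a mitochondrial aminotransferase that uses glyoxylate, was at 13.0, 15.1 and 18.3 in chow light and 4.77 and 5.30 in keto light, and at 11.2, 15.4 and 16.5 and 8.02 and 9.27 in heavy. It was at 28.4 and 24.7 in heavy and light of the S209A animal. Both keto animals lay below all chow animals in both pools, at -1.63 ± 0.50 in light (edgeR adjusted p = 0.796) and -0.74 ± 0.50 in heavy. Agxt and Pipox, the peroxisomal members, and Dmgdh had keto over chow in heavy of -0.73 ± 0.47, -0.57 ± 0.49 and 0.09 ± 0.54.

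The branched-chain group of 5 genes had medians of the opposite sign to the 45 members for heavy over light in chow and for diet in heavy, with mixed signs among its genes, and no test of that difference was made. Its median ratio was -0.15 in chow and 0.44 in keto, and its heavy diet median was 0.22, which is the value of Mccc1, with 3 of 5 positive. In the light pool 4 of 5 were lower in keto, with a median of -0.43 as over the 45 members, and over all 6 animals 5 of 5 had a positive ratio. The 2 genes for the E1 part of the branched-chain keto acid dehydrogenase parted. Bckdha (alpha) was at 61.6, 89.9 and 39.8 CPM in heavy and 23.0, 25.4 and 45.9 in light in chow, 20.9 and 22 and 25.4 and 21.6 in keto, and 48.5 and 60.4 in the S209A animal. In heavy both keto animals were below all chow animals, at -1.57 ± 0.53 (edgeR adjusted p = 0.506). Its ratio was 1.02 ± 0.38 in chow and -0.13 ± 0.46 in keto, a difference of -1.14 ± 0.59 (edgeR adjusted p = 0.835, and 0.0430 at -1.71 without chow 3).

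Bckdhb (beta) was at 4.47, 5.07 and 8.53 CPM in chow heavy and 5.50 and 20.1 in keto heavy, and at 6.09, 7.62 and 6.23 and 7.43 and 8.13 in light. It was at 7.10 and 7.97 in heavy and light of the S209A animal. Keto 2 heavy stood above all others, and the fitted 1.07 ± 0.64 became -0.14 without it. Mccc1, the biotin-bearing subunit of the leucine-specific carboxylase, was at 7.45, 3.77 and 12.5 CPM in heavy and 4.52, 8.91 and 12.2 in light in chow, at 10.1 and 8.5 and 3.43 and 3.53 in keto, and at 10.9 and 14.0 in heavy and light of the S209A animal. Heavy was above light in both keto animals, at 1.41 ± 0.64, and on either side in chow, at -0.16 ± 0.49. Ivd, which oxidises isovaleryl-CoA from leucine, was at 9.43, 17.5 and 15.5 and 10.8, 18.5 and 17.8 in chow and 14.8 and 23.2 and 8.58 and 15.6 in keto, and at 18.4 and 15.3 in heavy and light of the S209A animal, with all 3 chow animals lower and both keto animals higher in heavy. Pcca, of propionyl-CoA carboxylase, had a ratio of 0.07 ± 0.46 in chow and 0.10 ± 0.59 in keto.

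Proline and lysine breakdown was lower in keto heavy for all 4 members (median -0.58), with 0 passing. Aass, the first enzyme of lysine breakdown, was at 46.7, 105 and 60.4 CPM in heavy and 27.7, 77.7 and 47.6 in light in chow, 37.0 and 53.3 and 19.6 and 32.5 in keto, and 120.2 and 114 in the S209A animal. Heavy was above light in each of the 6 livers, at 0.53 ± 0.25 over all animals (edgeR adjusted p = 0.998). Prodh, the proline oxidase, was at 37.0, 48.6 and 43.0 CPM and 22.1, 38.7 and 26.8 in chow and 25.8 and 34.2 and 14.5 and 16.6 in keto, and at 45.6 and 51.5 in heavy and light of the S209A animal, with a ratio of 0.58 ± 0.37 in chow and 0.93 ± 0.46 in keto. Prodh2, of hydroxyproline, and Aldh4a1, which follows both, had chow ratios of -0.01 ± 0.36 and 0.59 ± 0.37.

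By compartment, the 24 cytosolic members had a median chow ratio of 0.57 (21 positive), the 19 mitochondrial ones of 0.23 (13 positive) and the 2 peroxisomal ones of 0.29. In keto the medians were 0.29, 0.25 and 0.15. For keto over chow in heavy they were -0.79, -0.52 and -0.65. Across the 45 members the chow ratio went with the mean log2 level (Spearman 0.68), whereas the keto ratio did not (0.002). These are descriptions over genes that share libraries and differ in counting error.

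The S209A animal had high levels of these enzymes, above all in its light pool, and with 1 animal there was no test. It lay above all 3 chow animals in 36 members in light (27.3% of all genes) and in 18 in heavy (22.4% of all genes). The median log2 difference from the mean of chow was 0.84 in light (all genes -0.07) and 0.37 in heavy (0.10). Chow 3 shares its header and title wording. Against that animal alone 40 members were higher in heavy and 40 in light, where 48.2% and 47.8% of all genes were, and the medians were 0.36 and 0.66.

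Heavy over light was below that of all 3 chow animals in 26 members (24.6% of all genes). Bhmt exceeded chow 3 by 1.57 in heavy and 2.73 in light, the widest gap in either pool, and Hal by 1.5 and 1.85 and Gldc by 1.18 and 1.83. Prodh2, Bckdhb, Mccc1, Agxt and Ftcd lay below chow 3 in heavy, from log2 -0.41 for Prodh2 to -0.02 for Ftcd. The hepatocyte markers summed to 8354 CPM in heavy and 9143 in light of the S209A animal, against 5656 and 4831 in chow 3. Their part in the enzyme levels was not tested, and the animal cannot be told apart from its genotype.

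**Figure D5:**
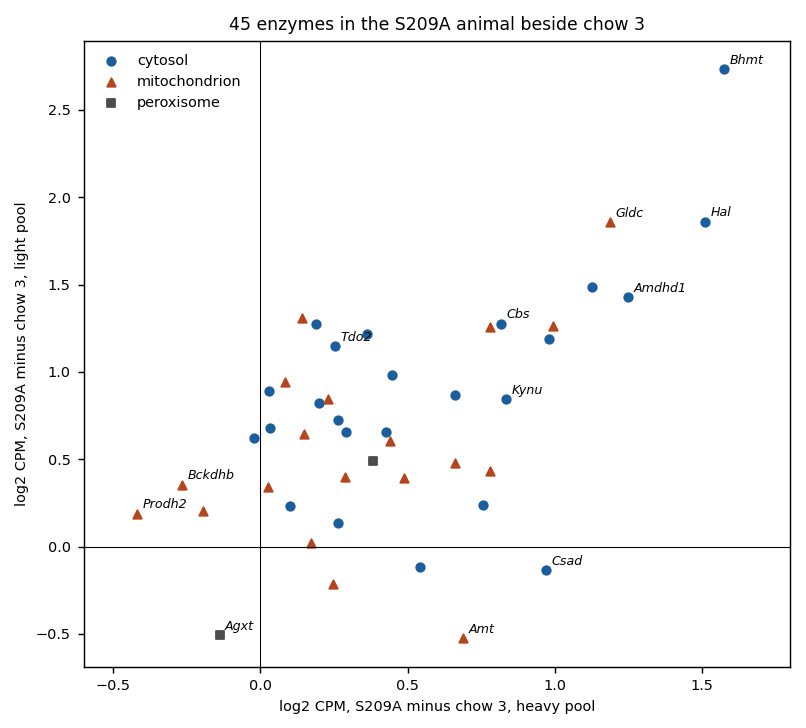
Log2 CPM of the S209A animal minus chow 3 for the 45 enzymes, heavy pool on the x axis and light pool on the y axis, with markers by compartment. In each pool 40 of the 45 points lie above 0, with Bhmt at 1.57 and 2.73.

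Among the other genes of the pathway 0 passed in edgeR in any of the 6 comparisons. Of 54 other genes of amino acid breakdown 53 were tested. Heavy over light in chow was positive in 35 of 53 (median 0.36), and an unadjusted p under 0.05 was reached by 5 genes on the higher and 0 on the lower side. Oat, the ornithine aminotransferase, had the smallest p, at 1.41 ± 0.38 (edgeR adjusted p = 0.0751). For keto over chow in heavy 38 of 53 were lower (median -0.48), 8 of them at an unadjusted p of 0.05 and 0 higher, and Sqor, a sulfide oxidase, stood at -2.36 ± 0.62 (edgeR adjusted p = 0.476). The members and these genes did not go alike throughout. In keto the ratio was positive in 24 of 53 (median -0.06), against 33 of 45 members, and over all 6 animals in 32 of 53 (median 0.09), against 42 of 45. In keto Acmsd, of the late kynurenine steps, stood at 3.47 ± 1.12 (edgeR adjusted p = 0.466).

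The urea cycle, which takes up the nitrogen, was positive in 7 of 8 genes for heavy over light in chow (median 0.79, with an unadjusted p under 0.05 in 4, all higher). For keto over chow in heavy 6 of 8 were lower (median -1.05, 2 lower and 0 higher unadjusted), with Otc at -2.35 ± 0.62 (edgeR adjusted p = 0.476). In light 5 of 8 were lower (median -0.73), with Ass1 at -1.83 ± 0.81 (edgeR adjusted p = 0.796). The 11 amino acid carriers went the other way between diets, with 8 of 11 higher in keto heavy (median 0.35) and 0 at an unadjusted p of 0.05 in either direction. Among them Slc6a13, a taurine and GABA carrier, stood at -1.23 ± 0.58 (edgeR adjusted p = 0.614). The glutamate carrier Slc1a2 had a heavy over light of 0.91 ± 0.37 in chow (edgeR adjusted p = 0.442).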

How the data were processed

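RNA from 12 polysome pools of 6 livers was sequenced after 10 ng of total RNA entered a stranded low-input total RNA kit, per the labels' protocols. The values deposited by the authors are raw read counts per Entrez gene ID, used as deposited. Trimmomatic, HISAT2, StringTie and mm10 are named in the submitters' processing notes. The file headers name Bowtie2 for chow 1 and chow 2, HISAT2 for chow 3 and the S209A animal, and neither for the keto animals. Versions, the counting tool, its strand setting and its handling of reads with several matches are not given in sources used here, so overlapping and antisense genes are uncertain. Symbols came from RefSeq (GRCm38.p6), for 25275 of 27179 IDs. ERCC RNA was spiked into the pools per the labels, and 0 such IDs were in the tables, so no spike-in scaling was used.

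Genes were kept at edgeR's filterByExpr with a minimum of 10 counts. Tests used edgeR 4.0.16 (R 4.3.3) with the quasi-likelihood F test, two-sided, TMM factors (0.324 to 3.12) and Benjamini-Hochberg adjustment over all genes at 0.05. Heavy was set against light with the animal as a block over 12 libraries, and diets within a pool over 6. CPM uses TMM-scaled totals, and log2 CPM for single animals a prior count of 2. A standard error is the absolute log2 value over the square root of F. The scripts were tested on simulated data. For each animal the deviations of heavy and light from the mean of its own diet and pool were correlated. The values were 0.307, 0.305 and 0.463 in chow 1, 2 and 3. Both keto animals gave 0.0616, a single value because deviations from a mean of 2 mirror each other. The animal pairs the pools because both come from 1 liver. No pair of replicate libraries had more than 1.89% identical values.

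Values in every library are given for the 3 members of smallest unadjusted p in each direction of each comparison, for the member of highest mean CPM of each substrate group, and for Tat, Tdo2, Sds, Gls2, Glud1, Bckdha, Gldc and Cth. The members, lists and tests were chosen with earlier results of these data known. Alternatives were DESeq2 1.42.0, RLE scaling, scaling over protein-coding genes, other count filters, omitted animals, other blocks and the title wording as a batch. Protein sequences were not used here.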

Additional observations from a re-analysis of the deposited data

Results flagged for a closer look

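Amdhd1 was higher in the heavy than in the light pool of each chow animal and lower in both keto animals, with a difference between diets of log2 -1.13 in heavy over light. Ivd went the other way, lower in heavy in each chow animal and higher in both keto animals, with a difference of 0.834. Some of these log2 ratios were small, at 0.06 in chow 3 and -0.04 in keto 2 for Amdhd1 and -0.08 in chow 2 for Ivd. The share of all genes with such a split was not computed, so these members have no background beside them. The interaction test in edgeR passed neither (adjusted p of 0.853 and 0.955).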

How the results depend on the processing

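Depth limits the members with few counts, and the 2 keto animals and the single S209A animal limit every comparison that uses them. The members' median kept its sign in all 6 comparisons under each alternative run. Under DESeq2 the members called were 5 for heavy over light in chow, 1 over all 6 animals and 3 for keto over chow in heavy, and the genes called were 94, 12 and 98, with 3 for heavy over light in keto and 10 for its difference between diets. With scaling over nuclear protein-coding genes the genes called were 13 for heavy over light in chow, 1 over all 6 animals and 2 for keto over chow in heavy. Without the filter on low counts they were 11, 15 and 112, and 39 for keto over chow in light, with 1 member called for keto over chow in heavy. At a mean of at least 50 counts 0 genes were called in each of the 6 comparisons, and with no replicate block for the animal 0 in each of the 4 on heavy over light.

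The replicate numbers of the labels did not pair animals across diets (correlations of -0.067 and 0.0463 in heavy, -0.0489 and 0.0076 in light). With the replicate number as a replicate block across diets, 2 members and 83 genes were called for keto over chow in heavy and 5 genes in light. With the title wording as a batch these were 3 members and 126 genes in heavy, and 2 members and 228 genes for the difference in heavy over light. Neither other scaling moved the median of all genes by over 0.1.

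Leaving out 1 animal at a time, the members called ran from 0 to 8 for heavy over light in chow, 0 to 2 for its difference between diets and 0 to 2 for keto over chow in heavy. The genes called ran from 4 to 402 for heavy over light in chow, 7 to 10 in keto, 0 to 19 over all 6 animals, 0 to 211 for the difference and 0 to 108 for keto over chow in heavy. Afmid ran from -0.259 to 0.0849 for heavy over light over all 6 animals, turning positive without keto 1. For keto over chow in heavy Bckdhb ran from -0.142 to 1.72 and Afmid from -0.479 to 1.05, both turning negative without keto 2. The cause was not tested.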
